A study of Mus musculus with 4 samples.

Results

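Hox genes are the homeobox genes of the Hoxa, Hoxb, Hoxc and Hoxd clusters, and the set described here holds every gene of the array whose probe sets are annotated to a single symbol of the form Hoxa, Hoxb, Hoxc or Hoxd followed by a number. That rule gave 33 genes, read by 48 probe sets, out of 18193 genes with a mean value in the deposited table. The RefSeq gene table lists 39 Hox genes. The other 6 have no value of their own here, among them Hoxb8 and Hoxd4, which were named only together with a neighbouring Hox gene.

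The samples were mouse embryonic fibroblasts (MEFs), which are primary cultures of minced torsos of mouse embryos taken 13.5 or 14.5 days after conception, without head and red organs. All were kept at 6% oxygen with 10% serum to passage 2 to 3. Knockout lines 2 and 4 were Pf1 -/- and wild-type lines 5 and 6 were Pf+/+, with 1 Affymetrix array per line and n = 2 lines per genotype in every comparison. Phf12 encodes Pf1, a PHD finger protein that belongs to Sin3 corepressor complexes containing histone deacetylases. The labels do not say which part of the torso a line came from, whether limbs were kept, which embryonic day or passage belonged to which line, or whether each line came from its own embryo. The p-values therefore measure the spread between these lines, and a difference in tissue of origin, embryonic day or passage between the genotypes cannot be told apart from the knockout.

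Hox proteins are transcription factors that give cells their position along the head to tail axis and along the limb. Genes of a cluster are numbered by paralogue group, and low numbers are generally active from the head end and high numbers in the tail and the distal limb, in the same order as the genes lie on the chromosome. Fibroblasts keep much of this pattern in culture, and Polycomb and Trithorax complexes, which repress and sustain transcription, maintain it.

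Values are log2 signals that had been centred per probe set on the median of the 4 arrays, so a value of 0 is the centre of that gene and not its absence. The values hold no signal level, and neither which Hox genes were expressed above background nor which of 2 genes was the more abundant can be read from them. Centring on the median of 4 values also makes the middle pair of a probe set equal in size and opposite in sign. Differences subtract the wild-type from the knockout mean. They carry the standard error (SE) of limma's moderated fit over all 18193 genes and its Benjamini-Hochberg adjusted p, and called genes are those with an adjusted p under 0.05. Adjusted p-values of single probe sets come from a separate limma fit over 45037 probe sets, so they are not on the same scale as those of genes. In whole cultures, fewer cells of a type and less RNA per cell cannot be told apart.

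The targeted gene was checked first. Phf12 probe set 1434922_at stood at -0.37 and -0.41 in the knockout lines and at 0.56 and 0.37 in the wild-type lines (limma adjusted p = 0.0213), while the other Phf12 probe set, 1453579_at, differed by 0.012 (limma adjusted p = 0.965). The sources used here do not place either probe set against the deletion.

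Hox transcripts differed between the genotypes in both directions, and the called genes of each direction lay in different clusters or stretches of a cluster. The 5 genes that rose in the knockout lines, Hoxa5, Hoxa7, Hoxb4, Hoxb6 and Hoxb9, lie in the Hoxa and Hoxb clusters. The 3 that fell, Hoxa11, Hoxd8 and Hoxd13, lie at the posterior end of Hoxa and in Hoxd. In all, 8 of 33 Hox genes were called, against 12.2% of all genes in either direction, 5.21% higher and 6.95% lower. The knockout and wild-type lines did not overlap for 25 Hox genes, 17 of them higher and 8 lower in the knockout, against 58.2% of all genes (28.7% higher, 29.5% lower). For the 8 called genes, whose lines do not overlap, leaving out a line cannot turn the sign of the difference. With any 1 line left out, the limma fit of 3 arrays takes the spread from the other genotype and assumes that the lone line varies like it. Those 4 fits called few genes of any kind, at most 321 (1.76%, with knockout line 4 left out) and 0 or 1 in the others, against 2212 with all lines. They called 0 of the 33 Hox genes, with 9 to 14 at an unadjusted p under 0.05 beside 3296 to 5418 of all 18193 genes, and the 8 genes kept their direction in each. The limma adjusted p of the 8 was then 0.113 to 0.23 without knockout line 2, 0.0592 to 0.237 without knockout line 4, 0.0887 to 0.145 without wild-type line 5 and 0.0527 to 0.117 without wild-type line 6. Among genes of above-median standard deviation, 5 of 24 Hox genes were called (20.8%), beside 21.3% of all genes so chosen, so the share of Hox genes did not exceed the background there. Hoxa7, Hoxb4 and Hoxd8 lost the call in that fit (limma adjusted p up to 0.0697).

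**Figure D1:**
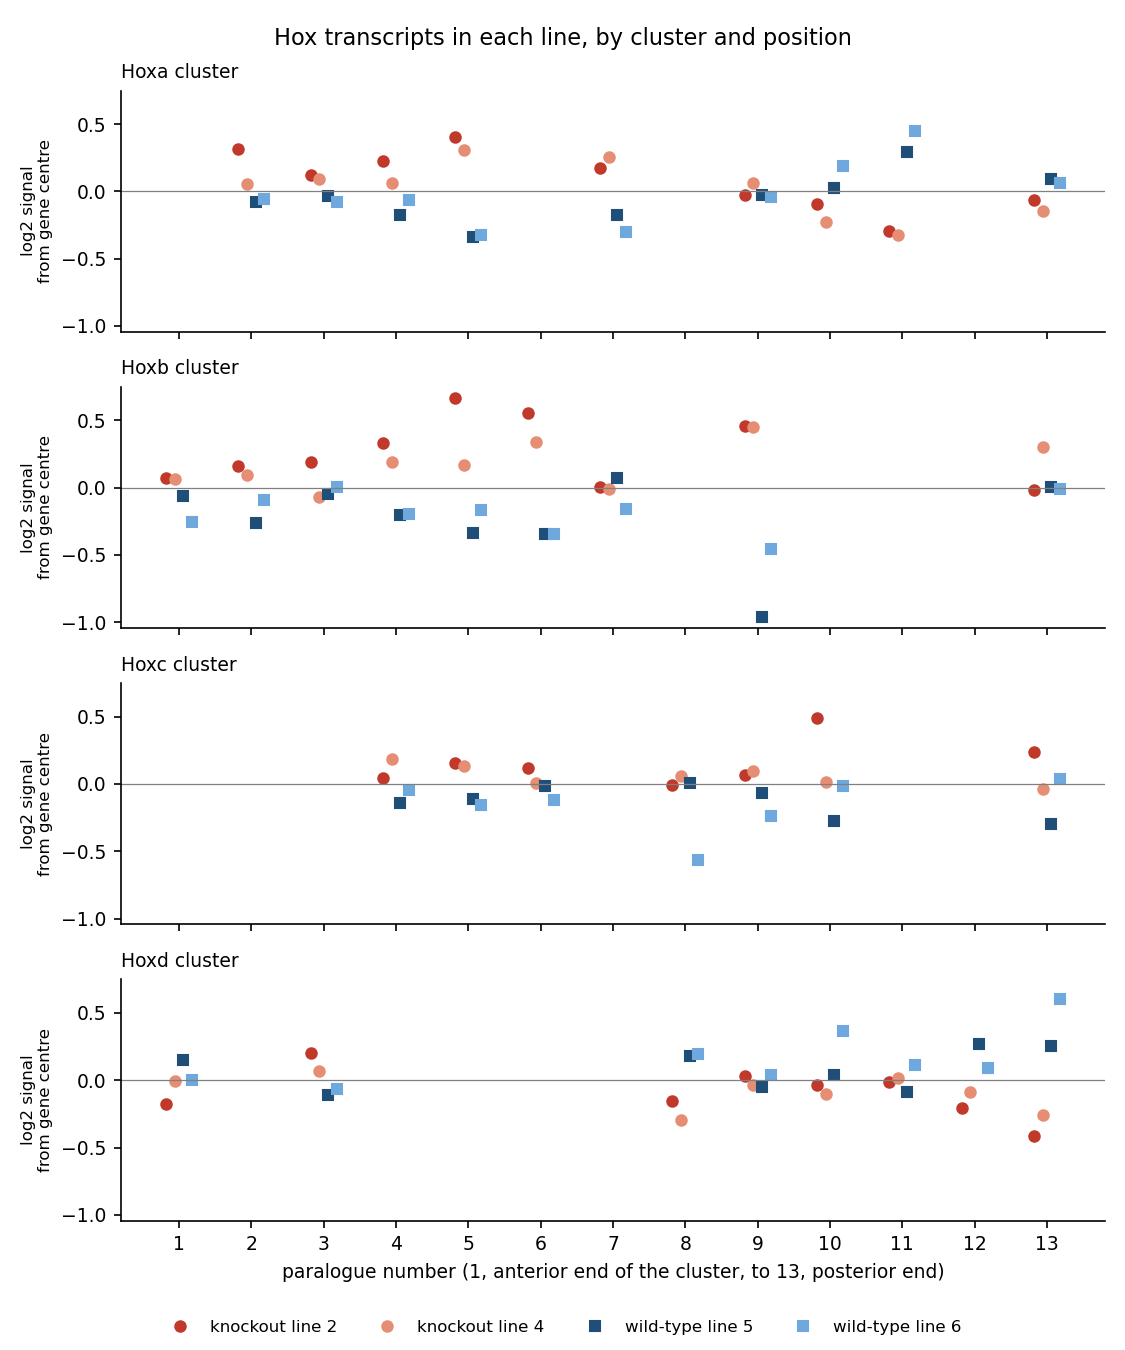
Log2 signal of each Hox gene in each line, relative to the gene's centre, against paralogue number from 1 to 13 in each of the 4 clusters. Circles are knockout lines and squares are wild-type lines. The circles lie above the squares at Hoxa5, Hoxb6 and Hoxb9 and below them at Hoxa11 and Hoxd13.

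Upstream sequences are shown for a pair of genes that rose and a pair that fell, as the DNA at which members of opposite direction start. Each run is the 250 bases before the annotated transcription start, 5′ to 3′ on the gene's own strand, from RefSeq on GRCm38.p6, with CpG dinucleotides in capitals, since CpG-rich starts are where Polycomb and Trithorax complexes commonly act. The windows are chr6:52204588-52204837 (minus strand) for Hoxa5, chr11:96318017-96318266 (plus strand) for Hoxb4, chr6:52245811-52246060 (minus strand) for Hoxa11 and chr2:74667975-74668224 (plus strand) for Hoxd13.
Hoxa5: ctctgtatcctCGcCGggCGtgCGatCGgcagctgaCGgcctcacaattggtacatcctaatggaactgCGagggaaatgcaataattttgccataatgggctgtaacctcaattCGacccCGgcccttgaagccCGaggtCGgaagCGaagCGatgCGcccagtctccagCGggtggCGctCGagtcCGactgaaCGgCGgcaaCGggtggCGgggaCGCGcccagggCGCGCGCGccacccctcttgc
Hoxb4: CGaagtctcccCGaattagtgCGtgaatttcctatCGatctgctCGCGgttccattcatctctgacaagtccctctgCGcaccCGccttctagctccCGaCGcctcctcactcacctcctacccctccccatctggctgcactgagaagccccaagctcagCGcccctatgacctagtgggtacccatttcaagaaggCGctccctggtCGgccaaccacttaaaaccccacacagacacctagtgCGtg
Hoxa11: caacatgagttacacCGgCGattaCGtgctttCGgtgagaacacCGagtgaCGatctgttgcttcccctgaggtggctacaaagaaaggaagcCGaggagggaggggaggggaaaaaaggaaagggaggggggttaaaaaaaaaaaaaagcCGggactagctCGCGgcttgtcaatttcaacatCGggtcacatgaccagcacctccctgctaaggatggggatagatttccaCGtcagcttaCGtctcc
Hoxd13: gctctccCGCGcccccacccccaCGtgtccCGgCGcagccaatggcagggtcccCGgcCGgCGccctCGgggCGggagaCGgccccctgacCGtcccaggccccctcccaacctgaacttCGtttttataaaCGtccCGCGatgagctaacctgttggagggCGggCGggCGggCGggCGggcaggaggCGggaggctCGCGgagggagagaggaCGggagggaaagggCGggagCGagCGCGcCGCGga
These windows held 28 CpG at Hoxa5, 14 at Hoxb4, 13 at Hoxa11 and 31 at Hoxd13, so CpG-rich and CpG-poorer starts were found among genes of either direction. The promoter table matched 22 Hox genes with 24 windows, whose median was 12.5 CpG and 58.6% G or C, against 6 CpG and 52.4% over all 32851 windows. It held 6 of the 8 called genes, with 7 CpG at Hoxa7 and 6 at Hoxd8, and no entry for Hoxb6 or Hoxb9. The letters TATAAA, the core of a TATA box, were found on either strand in 4 Hox windows (16.7%, against 12.4% of all windows), among them that of Hoxd13. The letters AGGTCA, part of the site of nuclear receptors such as those for retinoic acid, were found in 6 (25%, against 14% of all windows), among them those of Hoxb4 and Hoxd8. The other letters searched were also more frequent in Hox windows than in all windows. CCAAT was found in 58.3% against 33.8%, and the Cdx core TTTATG in 20.8% against 10.8%. The Pbx and Hox core TGATNNAT was found in 16.7% against 7.68%, and the homeodomain core TAATTA in 8.33% against 4.84%. These shares were not tested. A match of letters is a description and not a binding site.

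In the Hoxa cluster the measured genes up to Hoxa7 stood higher in the knockout lines, and Hoxa10, Hoxa11 and Hoxa13 stood lower. Hoxa5, which patterns the neck and upper chest and the developing lung, had values of 0.40 (line 2) and 0.31 (line 4) in the knockout and of -0.34 (line 5) and -0.32 (line 6) in the wild type, the order of lines used throughout. Both knockout lines lay above both wild-type lines, and the gaps within a genotype were small beside the gap between them. Hoxa5 rose 1.61-fold (log2 difference 0.69 ± 0.084 SE, limma adjusted p = 0.018). Its 2 probe sets were each called, at 0.86 (1448926_at, limma adjusted p = 0.0178) and 0.52 (1443803_x_at, limma adjusted p = 0.0438).

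Hoxa7, a gene of the thoracic segments, had values of 0.17 and 0.26 in the knockout lines and -0.17 and -0.30 in the wild-type lines. The groups did not overlap, and Hoxa7 rose 1.37-fold (0.45 ± 0.0923 SE, limma adjusted p = 0.0423). Its single probe set, 1449499_at, was not called in the fit over probe sets (limma adjusted p = 0.0602). Hoxa2, a determinant of the skeleton of the second pharyngeal arch, stood at 0.25, Hoxa3, needed for the thymus and parathyroid, at 0.16 and Hoxa4 at 0.26, none of them called, and all 3 without overlap. Hoxa9, the first gene of the posterior class, stood at 0.050 with overlapping lines.

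Beyond Hoxa9 the sign turned. Hoxa11, which patterns the forearm and lower leg and is needed in kidney and uterus, stood at -0.29 and -0.32 in the knockout lines and at 0.29 and 0.45 in the wild-type lines. Both knockout lines were low and both wild-type lines high, and Hoxa11 fell 1.60-fold (-0.68 ± 0.0937 SE, limma adjusted p = 0.021). Hoxa10 (-0.27 ± 0.103) and Hoxa13 (-0.18 ± 0.0833), its neighbours on either side among the measured genes, were not called (limma adjusted p = 0.161 and 0.232), although their lines did not overlap either. Hoxa10 was uneven between its probe sets, at -0.47 (1431475_a_at) and -0.072 (1446408_at).

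Hoxa11os, the noncoding RNA transcribed from the opposite strand at Hoxa11, stood at -0.16 and -0.20 in the knockout lines and 0.16 and 0.28 in the wild-type lines. It fell with its partner (-0.40 ± 0.0877 SE, limma adjusted p = 0.0499), at the edge of the threshold. The call was lost at 0.0516 with column medians subtracted, at 0.052 with the median of its probe sets and at 0.0517 without probe sets of shared sequence, and its probe sets stood at -0.65 (1452400_a_at, limma adjusted p = 0.0376) and -0.14 (1457646_at, limma adjusted p = 0.402). The sources used here do not say whether these probe sets separate the strands at this locus. Of 5 measured genes among the 12 listed cluster noncoding RNAs and Evx genes, 0 rose and 1 fell (20%, against 12.2% of all genes). Hoxb5os stood at -0.19 and Hoxd3os1 at -0.032, with overlapping lines, while Hoxb5 stood at 0.67 and Hoxd3 at 0.22.

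All 9 measured genes of the Hoxb cluster stood higher in the knockout, 3 of them called, beside 5.21% of all genes called higher. Hoxb9, a gene of the thoracic segments and the rib cage, had the widest difference of the 33 Hox genes. It stood at 0.46 and 0.45 in the knockout lines and at -0.96 and -0.45 in the wild-type lines. The knockout lines nearly coincided and the wild-type lines lay apart from each other, both of them below. Hoxb9 rose 2.24-fold (1.16 ± 0.178 SE, limma adjusted p = 0.0255).

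Hoxb6, expressed in lateral mesoderm of trunk and limb, stood at 0.55 and 0.34 in the knockout lines and at -0.35 and -0.34 in the wild-type lines. Here the wild-type lines coincided, the knockout lines lay above them, and Hoxb6 rose 1.73-fold (0.79 ± 0.103 SE, limma adjusted p = 0.0192). Hoxb4, known also from blood stem cells, stood at 0.33 and 0.19 in the knockout lines and at -0.20 and -0.20 in the wild-type lines. It rose 1.37-fold (0.46 ± 0.09 SE, limma adjusted p = 0.0394), with its probe sets at 0.74 (1460379_at, limma adjusted p = 0.0271) and 0.18 (1451761_at, limma adjusted p = 0.322), so the mean understates the first and overstates the second.

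Hoxb5 lay between them on the chromosome, with values of 0.67 and 0.17 in the knockout lines and -0.34 and -0.17 in the wild-type lines. The lines did not overlap and the difference was 1.59-fold, yet knockout line 2 stood far above knockout line 4 and the test was not passed (0.67 ± 0.185 SE, limma adjusted p = 0.0808). Hoxb2, a gene of the hindbrain segments, stood at 0.30 ± 0.0975 (limma adjusted p = 0.113) and Hoxb1, its anterior neighbour with a like role, at 0.22 ± 0.0985 (limma adjusted p = 0.213), both without overlap. Hoxb3 (0.083), Hoxb7 (0.046) and Hoxb13 (0.14) overlapped between the genotypes. Hoxb3 changed sign without knockout line 2, Hoxb7 without wild-type line 6 and Hoxb13 without knockout line 4. The probe set shared by Hoxb8 and Hoxb7, 1452493_s_at, stood at 0.25 and -0.039 in the knockout lines and at -0.46 and 0.039 in the wild-type lines, with overlap.

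**Figure D2:**
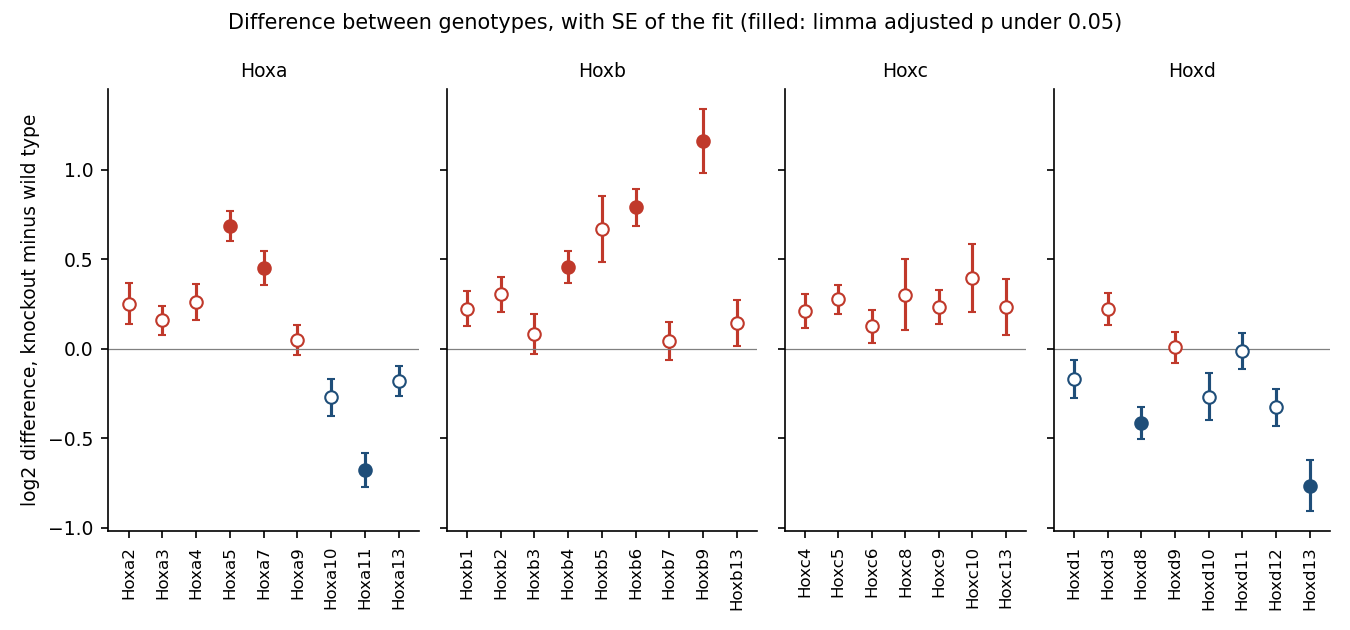
Log2 difference, knockout minus wild type, of the 33 Hox genes in chromosomal order within each cluster, with bars of 1 SE of the limma fit and filled points for adjusted p under 0.05. Hoxa passes from 0.69 at Hoxa5 to -0.68 at Hoxa11, the genes of Hoxb and Hoxc lie above 0, and Hoxd reaches -0.77 at Hoxd13.

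The Hoxc cluster, active in trunk, hindlimb and skin, had 0 called genes of 7 (limma), beside 12.2% of all genes. At an unadjusted p under 0.05 there was 1, beside 29.5% of all genes. The alternative fits that kept all 4 lines also called 0 Hoxc genes at an adjusted p under 0.05. The 7 Hoxc differences were all above 0, from 0.13 (Hoxc6) to 0.40 (Hoxc10). Hoxc5 stood at 0.16 and 0.13 in the knockout lines and at -0.11 and -0.16 in the wild-type lines, without overlap (0.28 ± 0.08 SE, limma adjusted p = 0.0898). It passed at an adjusted p under 0.10, as did 21.4% of all genes. Its 3 probe sets disagreed, at 0.55 (1439885_at, limma adjusted p = 0.0361), 0.31 (1450832_at) and -0.023 (1456301_at). Hoxc10, a gene of the lumbar segments and hindlimb, stood at 0.49 and 0.012 in the knockout lines and at -0.28 and -0.012 in the wild-type lines, so that knockout line 2 stood well above the others (limma adjusted p = 0.249). Hoxc8, a thoracic gene, stood at -0.0086 and 0.056 in the knockout lines and at 0.0086 and -0.57 in the wild-type lines. Its difference of 0.30 rested on wild-type line 6 and was 0.015 without it. Hoxc4 (0.21), Hoxc9 (0.23) and Hoxc13 (0.23), the last with a known role in hair and nails, were not called, and the lines of Hoxc13 overlapped.

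In the Hoxd cluster 6 of 8 measured genes stood lower in the knockout, 2 of them called, beside 6.95% of all genes called lower. Hoxd13, which shapes the digits and the genital and anal region, stood at -0.41 and -0.26 in the knockout lines and at 0.26 and 0.60 in the wild-type lines. All 4 lines kept to the side of their genotype, wild-type line 6 being the highest, and Hoxd13 fell 1.70-fold (-0.77 ± 0.143 SE, limma adjusted p = 0.0355). Its probe sets stood at -0.99 (1440626_at, limma adjusted p = 0.0378) and -0.54 (1422239_at, limma adjusted p = 0.0693).

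Hoxd8, expressed along trunk and limb, had values of -0.16 and -0.29 in the knockout lines and 0.18 and 0.20 in the wild-type lines. The wild-type lines lay close together and above both knockout lines, and Hoxd8 fell 1.33-fold (-0.41 ± 0.0895 SE, limma adjusted p = 0.048). That call was lost with array weights (limma adjusted p = 0.0533) and with the median of the probe sets (0.0503). Neither of its probe sets was called by itself, at -0.50 (1431099_at, limma adjusted p = 0.0507) and -0.33 (1433638_s_at, limma adjusted p = 0.115).

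Between these genes the cluster was uneven. Hoxd12, a gene of the distal limb, stood at -0.21 and -0.088 in the knockout lines and at 0.27 and 0.088 in the wild-type lines (limma adjusted p = 0.111). Hoxd10 differed by -0.27 (limma adjusted p = 0.258), with wild-type line 6 at 0.36 and the other lines between -0.099 and 0.036. Hoxd9 (0.0084) and Hoxd11 (-0.012) lay near 0, overlapped and changed sign with single lines left out. At the anterior end Hoxd1 stood at -0.17 and Hoxd3, a gene of the upper neck vertebrae, at 0.22, each without overlap and neither called. The probe sets named for Hoxd4 and Hoxd3 together differed by 0.096 (1421537_at) and -0.018 (1450209_at).

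By cluster, the median difference was 0.16 for the 9 Hoxa genes, 0.30 for the 9 Hoxb genes, 0.23 for the 7 Hoxc genes and -0.22 for the 8 Hoxd genes, beside 0.21 for all 33 Hox genes and -0.0027 for all genes. The knockout lines gave the same order of sign, but they share the wild-type mean and are not independent in this. Relative to the wild-type mean, the cluster medians in knockout lines 2 and 4 were 0.18 and 0.12 for Hoxa, 0.34 and 0.30 for Hoxb, 0.27 and 0.25 for Hoxc and -0.25 and -0.17 for Hoxd. The median of Hoxa lies between 2 groups of opposite sign and moved with the choice of probe sets, to 0.050 without those of shared sequence and 0.098 with the median over probe sets. Differences between clusters were not tested.

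By position, the 7 anterior genes (paralogues 1 to 3) had a median of 0.22, the 12 central genes (4 to 8) 0.29 and the 14 posterior genes (9 to 13) -0.0018. In the central class 5 of 12 genes were called (limma), 4 higher and 1 lower. Of the anterior genes 0 of 7 were called, with Hoxb2 alone at an unadjusted p under 0.05. Of the posterior genes 3 of 14 were called, 1 higher and 2 lower. The share of all genes called was 12.2%, 5.21% higher and 6.95% lower. The central genes Hoxa7, Hoxb4 and Hoxd8 lost the call among genes of above-median standard deviation. Differences between classes were not tested. The posterior genes divided by cluster. Those of Hoxa had a median of -0.23 and those of Hoxd of -0.27, while the 3 of Hoxc stood at 0.23, and Hoxb had only 2, Hoxb9 at 1.16 and Hoxb13 at 0.14. The posterior median changed sign without wild-type line 6, to 0.048. The anterior median was 0.14 without knockout line 2 and 0.14 without wild-type line 6, and the median of all 33 genes was 0.14 in both of these fits.

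**Figure D3:**
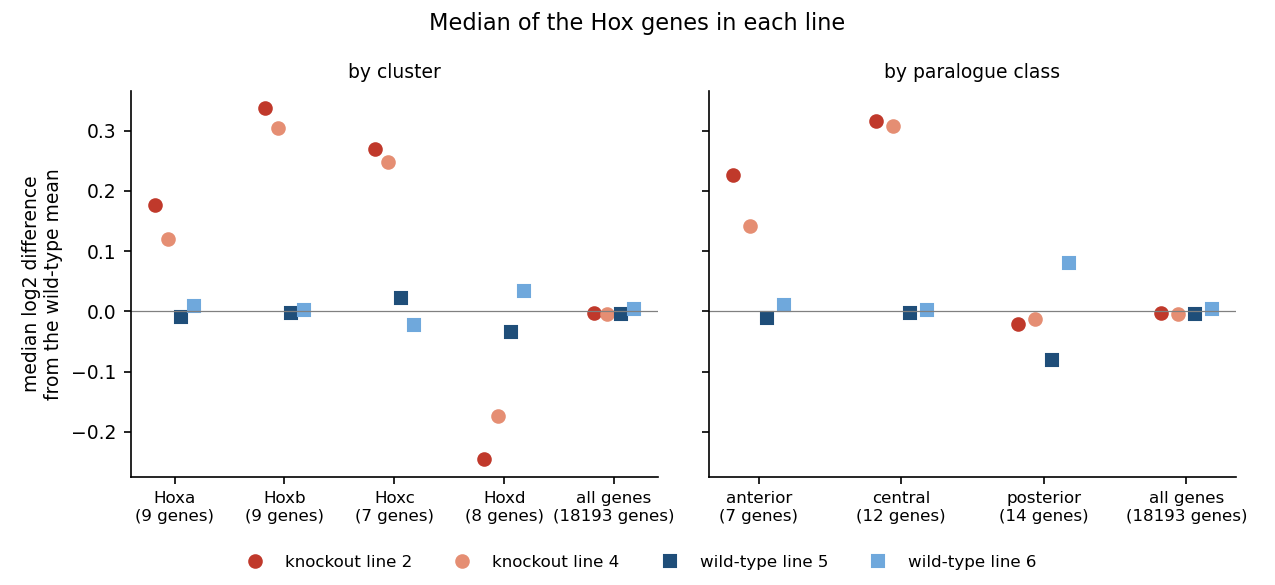
Median over the Hox genes of each cluster (left) and each paralogue class (right) in each line, as the log2 difference from the wild-type mean, with all genes for comparison. Both knockout lines lie above 0 for Hoxa, Hoxb and Hoxc, at up to 0.34, and below 0 for Hoxd, at -0.25 and -0.17. The posterior class stays near 0.

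Across the 33 genes, the difference and the paralogue number had a Spearman correlation of -0.406 (Pearson -0.377), given as a description, since the points share the same 4 arrays and neighbouring genes are not independent. Within clusters the correlation was -0.65 over 9 Hoxa genes and -0.524 over 8 Hoxd genes, and 0.133 over 9 Hoxb genes and 0.429 over 7 Hoxc genes. In Hoxa and Hoxd, the clusters best known for patterning the limb, both knockout lines gave a negative value against the wild-type mean, -0.683 and -0.633 for Hoxa and -0.524 and -0.429 for Hoxd. The values of knockout lines 2 and 4 share that wild-type mean and are not independent of each other. In the other clusters the knockout lines differed in sign, with -0.017 and 0.45 for Hoxb and 0.714 and -0.464 for Hoxc. Within a genotype, Hoxa gave -0.433 for knockout line 2 minus 4 and -0.15 for wild-type line 5 minus 6, and Hoxd -0.333 and -0.452. The Hoxd value was thus nearly matched in size between lines of 1 genotype. Over 33 genes the within-genotype values were -0.199 for the knockout and -0.267 for the wild type. Their sign depends on which line is subtracted from which, so only their size can be read beside the -0.406 between genotypes.

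Genes of the same paralogue group in different clusters arose from a common ancestor and often share functions. Every measured member of groups 2 to 7 stood higher in the knockout with all 4 lines, Hoxb3 and Hoxb7 losing that sign with a line left out. In group 5, Hoxa5 and Hoxb5 stood at 0.69 and 0.67 and Hoxc5 at 0.28. In group 9, all 4 members were above 0, from 0.0084 (Hoxd9, -0.0017 after quantile normalisation) to 1.16 (Hoxb9). Members differed in sign in groups 1, 8, 10 and 13. In group 1, Hoxd1 stood at -0.17 and Hoxb1 at 0.22, and in group 8, Hoxd8 stood at -0.41 and Hoxc8 at 0.30. In group 10, Hoxa10 and Hoxd10 both stood at -0.27 and Hoxc10 at 0.40. In group 11 both members were below 0, Hoxa11 at -0.68 and Hoxd11 at -0.012. Group 13 ranged from -0.77 (Hoxd13) and -0.18 (Hoxa13) to 0.14 (Hoxb13) and 0.23 (Hoxc13).

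The spread between lines of a genotype was read for each gene as the gap between its 2 lines. The median gap over the Hox genes was 0.12 in the knockout and 0.13 in the wild type, beside 0.095 and 0.12 over all genes, and the median size of the genotype difference was 0.26 beside 0.15. For 21 of 33 Hox genes the genotype difference was larger than both gaps, against 47.3% of all genes. A difference of at least 1.5-fold was seen for 6 Hox genes, 4 higher and 2 lower, against 9.93% of all genes. The widest gaps between wild-type lines were those of Hoxc8 (0.57) and Hoxb9 (0.51), and the widest between knockout lines those of Hoxb5 (0.50) and Hoxc10 (0.48). Of 11 Hox genes with more than 1 probe set, 8 had all of them on the same side of 0. Hoxa3, Hoxa9 and Hoxc5 did not, and of the 48 probe sets fitted by themselves 6 were called higher and 2 lower, against 8.32% of all probe sets.

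Genes that act with, above and around the Hox genes were counted from lists chosen with earlier results of these data known. Their counts are to be read beside the 12.2% of all genes called, 5.21% higher and 6.95% lower, and the 29.5% at an unadjusted p under 0.05. Of the 143 genes of these lists and of the cluster surroundings, 18 were called with all lines and 4 without knockout line 4 (Crabp1, Crabp2, Meox1 and Meox2). Without each of the other lines 0 were called (limma). Hox proteins bind DNA together with cofactors of the Pbx, Meis and Pknox families. Of 8 measured cofactors of 9 listed, 0 were called (limma; 1 at an unadjusted p under 0.05), with Pknox2 at -0.49 ± 0.117 SE (limma adjusted p = 0.0595) and Pknox1 at -0.11 ± 0.0851 (limma adjusted p = 0.471). Meis1, a partner in blood and limb, stood at 0.094.

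Among 16 measured genes of the signals that switch on the clusters in the embryo (Cdx factors, retinoic acid, Fgf, Wnt and Gdf11), 0 rose and 2 fell (12.5%, near the 12.2% of all genes). Crabp1, which binds retinoic acid in the cytoplasm, stood at -0.91 and -1.59 in the knockout lines and at 0.97 and 0.91 in the wild-type lines. It fell 4.58-fold (-2.20 ± 0.229 SE, limma adjusted p = 0.0157). Crabp2, which carries retinoic acid to its nuclear receptor, fell 2.87-fold (-1.52 ± 0.201 SE, limma adjusted p = 0.0196). Both genes belong to the handling of retinoic acid, a signal known to act on anterior Hox genes, while its synthesis enzyme Aldh1a2 was not called (-1.34 ± 0.405 SE, limma adjusted p = 0.0984) and wild-type line 6 stood far above the rest at 1.55. Cdx1, Cdx2 and Cdx4 lay between -0.12 and -0.070. The part of these signals in the Hox differences was not tested.

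The maintenance systems were called at about the share of all genes (12.2%). Of 29 measured Polycomb genes, 2 rose and 1 fell (10.3%). The histone H3 methyltransferase Ezh2 (0.64 ± 0.118 SE, limma adjusted p = 0.035) and the Polyhomeotic gene Phc2 (0.60 ± 0.0935 SE, limma adjusted p = 0.0262) rose, and the ring-finger gene Pcgf5 (-0.52 ± 0.101 SE, limma adjusted p = 0.0387) fell. Of 14 measured Trithorax and open-chromatin genes, 2 rose and 0 fell (14.3%). These were Rbbp5 (0.50 ± 0.0973 SE, limma adjusted p = 0.0377) and Wdr5 (0.42 ± 0.0929 SE, limma adjusted p = 0.0498), both core subunits of histone H3 methyltransferase complexes. The call of Wdr5 was lost with array weights (0.0512), column medians subtracted (0.0529) and both other choices of probe sets (0.051 to 0.0524). Medians were 0.066 for the Polycomb list and 0.023 for the Trithorax list, beside -0.0027 for all genes.

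Of 12 genes described as targets of Hox proteins, 2 rose and 0 fell (16.7%, against 12.2% of all genes), the ephrin receptor Epha2 (0.79 ± 0.085 SE, limma adjusted p = 0.016) and the cell cycle inhibitor Cdkn1a (0.41 ± 0.0881 SE, limma adjusted p = 0.0478). The call of Cdkn1a was lost with array weights (0.051), and the list's median was -0.087.

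Genes of position in limb and trunk, most of them transcription factors but with Shh and Grem1 among them, stood mostly lower in the knockout. Of 21 measured, 0 rose and 5 fell (23.8%, against 12.2% of all genes, 6.95% lower), and 17 lay below 0, with a median of -0.34. Tbx4, a hindlimb gene, stood at -0.28 and -0.25 in the knockout lines and at 0.30 and 0.45 in the wild-type lines and fell 1.56-fold (-0.64 ± 0.0919 SE, limma adjusted p = 0.022). Meox1 and Meox2, homeobox genes of the somites, fell 7.04-fold (-2.82 ± 0.345 SE, limma adjusted p = 0.018) and 3.97-fold (-1.99 ± 0.182 SE, limma adjusted p = 0.014). Isl1, active at the start of the hindlimb (-0.47 ± 0.102 SE, limma adjusted p = 0.0475), and Tbx3, a gene of the limb margins (-0.70 ± 0.15 SE, limma adjusted p = 0.0472), also fell. The call of Isl1 was lost with array weights (0.054) and the median of the probe sets (0.0509), and that of Tbx3 with the median of the probe sets (0.176) and without those of shared sequence (0.0985). Tbx5 of the forelimb (-0.32, limma adjusted p = 0.0644) and Pitx1 of the hindlimb (-0.34, limma adjusted p = 0.0645) were not called, nor was Msx2, the member farthest above 0 (0.96, limma adjusted p = 0.0501).

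**Figure D4:**
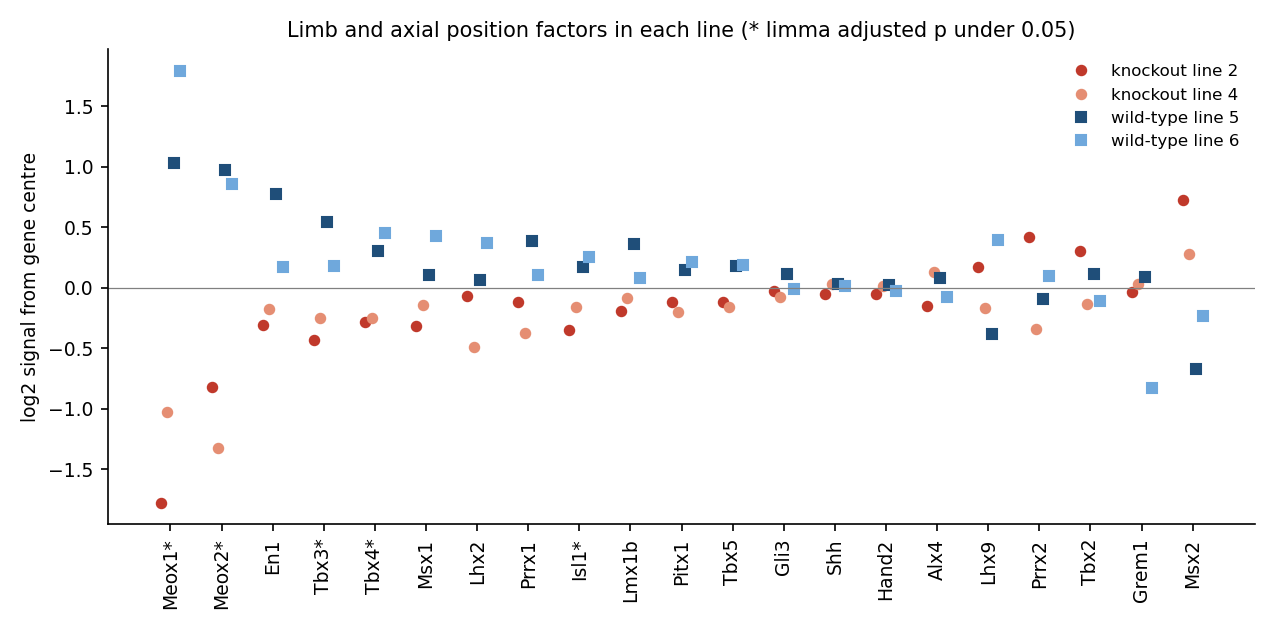
Log2 signal of 21 limb and axial position factors in each line, relative to each gene's centre, ordered by the difference between genotypes. Circles are knockout lines, squares are wild-type lines and asterisks mark adjusted p under 0.05. Meox1, Meox2, Tbx3, Tbx4 and Isl1 have both circles below both squares.

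The genes next to the clusters were examined by their order in RefSeq, as the 5 nearest measured genes on each side of each cluster. Of these 40 genes, 2 rose and 1 fell (7.5%, against 12.2% of all genes), with a median of 0.040. Snx11, a sorting nexin on the anterior side of Hoxb, rose 1.44-fold (0.53 ± 0.0828 SE, limma adjusted p = 0.0264), and the autophagy-linked gene Tax1bp1 on the posterior side of Hoxa rose 1.31-fold (0.39 ± 0.0789 SE, limma adjusted p = 0.0421), a call lost with the median of the probe sets (0.0547) and without those of shared sequence (0.105). Ttc30b, a gene of cilia on the anterior side of Hoxd, fell 1.42-fold (-0.50 ± 0.0807 SE, limma adjusted p = 0.0271). Evx1, the homeobox gene beside Hoxa13, stood at -0.30 and Evx2, beside Hoxd13, at 0.19, and neither was called.

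Phf12 and the Hoxb cluster lie on the same chromosome, 11. Of 234 measured genes between them, 34 were called (14.5%), 12 higher and 22 lower, with a median of -0.012. Over all 1452 measured genes of chromosome 11 the share was 12.3%, and over the chromosomes of Hoxa (6), Hoxc (15) and Hoxd (2) it was 10.7%, 10.4% and 10.2%. The part of linkage to Phf12 in the Hoxb differences was not tested.

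Markers of cell types that a torso culture can hold also differed with genotype, and are given as differences, since the files hold no levels. The background remains 12.2% of all genes called. Of 10 fibroblast markers, 5 fell, among them Col1a1 (-0.96) and Pdgfra (-2.17), and their median relative to the wild-type mean was -0.46 and -0.53 in the knockout lines and 0.11 and -0.11 in the wild-type lines. Of 7 epithelial markers, 2 rose, Krt8 (2.42) and Cldn4 (1.66), and 1 lay below 0, Epcam (-0.13). Their medians were 0.18 and 0.28 in the knockout lines and -0.041 and 0.041 in the wild-type lines, with a median difference of 0.23. Macrophage markers, with 0 of 8 called (limma; 0 at an unadjusted p under 0.05), separated the wild-type lines at 0.87 and -0.87 and stood at 0.078 and 0.80 in the knockout lines. All 8 differences lay above 0, with a median of 0.50, and the lines of 7 markers overlapped. Of 7 endothelial markers, Emcn rose (1.85) and Tek fell (-0.72), with 6 below 0 and a median difference of -0.030. Of 7 skeletal muscle markers, Acta1 (3.14) and Des (0.62) rose, with 3 below 0 and a median of 0.043. Of 5 cartilage and bone markers, Col2a1 rose (1.74) and Sox9 fell (-0.51), with a median of 0.018. Of 8 neural markers, Stmn2 fell (-2.21), with a median of 0.042, and of 4 neural crest markers, Fabp7 rose (3.31), with a median of 0.11. Kidney and intermediate mesoderm markers, another site of posterior Hox genes, had 0 of 6 called (limma; 0 at an unadjusted p under 0.05) and a median of -0.024. The part of a changed mixture of cells in the Hox differences was not tested.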

How the data were processed

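The deposited log2 values came from Affymetrix Expression Console and RMA, per the submitters' processing notes. The sources used here give no version of either, and the log base was taken from the method. The deposited values of all 45101 probe sets had a median over the 4 arrays of 0 within 1e-06, so they had been centred, a step absent from the labels. Detection calls and scan dates were not used here. Precision is limited by having 4 arrays.

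Of the probe sets, 64 were controls, 34945 named a single gene, 932 several and 9160 none. Entrez identifiers matched 34741 to RefSeq genes of GRCm38.p6, changing 0 symbols. Probe sets of a single gene were averaged per gene, controls left out. The fit used limma 3.58.1 (lmFit, eBayes; R 4.3.3) with no block (2 residual and 3.04 prior degrees of freedom), with Benjamini-Hochberg adjustment over 18193 genes. This fit was tested on simulated data. Single probe sets were fitted separately by the same model, with adjustment over 45037 probe sets.

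The members and lists were chosen with earlier results of these data known. The text names every Hox gene, Phf12, called members of each list of Hox-related genes (or up to 2 with the smallest p), called neighbours and up to 3 markers per list. Meis1, Aldh1a2, the Cdx genes, Tbx5, Pitx1, Msx2, Evx1, Evx2, Hoxb5os and Hoxd3os1 were named after their values were seen. Paralogue classes were 1 to 3, 4 to 8 and 9 to 13. Alternatives were other summaries of probe sets, normalisations, weights, moderation and filters, and leaving out each line.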

Additional observations from a re-analysis of the deposited data

How the results depend on the processing

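With each line left out in turn, the median difference lay between 0.14 and 0.21 for all Hox genes, 0.12 and 0.18 for Hoxa, 0.30 and 0.39 for Hoxb, 0.25 and 0.27 for Hoxc, -0.25 and -0.17 for Hoxd, 0.14 and 0.23 for anterior, 0.29 and 0.38 for central and -0.075 and 0.048 for posterior genes. The counts of called Hox genes, of those higher and of those lower all ranged from 0 to 0, and that of called genes among the 143 list and neighbour genes from 0 to 4, against 18 with all lines. Phf12 (1434922_at) ranged from -0.95 to -0.76, with limma adjusted p from 0.0605 to 0.169. Hoxb3 ranged from -0.047 to 0.21, Hoxb7 from -0.069 to 0.16, Hoxb13 from -0.017 to 0.30, Hoxd9 from -0.036 to 0.053 and Hoxd11 from -0.11 to 0.090. Without knockout line 2 or wild-type line 5 Hoxd9 stood at -0.026 and -0.036, and without knockout line 2 Hoxd11 stood at 0.0015.

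The Hoxa median was 0.098 with the median of the probe sets, 0.050 without those of shared sequence (_x_at and _s_at) and 0.26 over genes of above-median standard deviation. That filter, which tested 24 Hox genes, gave 0.46 for Hoxb, -0.33 for Hoxd and 0.38 for central genes, and called 5 Hox genes, 3 of them higher (20.8%, beside 21.3% of all genes in it); Hoxa11os, Wdr5, Isl1, Cdkn1a and Tax1bp1 lost their calls under it (limma adjusted p from 0.0577 to 0.0752). Quantile normalisation gave 0.28 for Hoxb, 0.32 for central genes and -0.0017 for Hoxd9, and the central median was 0.30 with the median of the probe sets and 0.34 without those of shared sequence. At an unadjusted p under 0.05, 14 Hox genes (9 higher, 5 lower) and 47 list and neighbour genes passed, beside 29.5% of all genes. At an adjusted p under 0.10, 10 Hox genes (7 higher, 3 lower) and 35 list and neighbour genes passed, beside 21.4% of all genes. Single probe sets of opposite sign were those of Hoxa3 (-0.052), Hoxa9 (-0.017) and Hoxc5 (-0.023). The 8 called Hox genes kept their direction under every alternative run. Leaving out a line could not have changed it, since their lines did not overlap. Their calls held under quantile normalisation, subtraction of column medians, robust moderation and without probe sets of shared sequence. The causes of the other moves were not tested. No paired analysis was possible because the genotypes share no line number.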
